A study of Mus musculus with 42 samples.

Results

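The genes described here are 38 mouse genes grouped as the ATF4, amino acid transport and one-carbon module: the transcription factor gene Atf4 with its partners and stress targets, the enzymes that make serine, asparagine and folate one-carbon units, and the carriers that bring amino acids into the cell. Members were listed by name, with earlier results of these data known, and taken as the transcript clusters (array features that read 1 transcript region through many probes) whose only platform symbol was a listed gene, and the cluster with the highest mean was used. Of the 38 genes 37 had such a cluster, among 19752 genes with one in the whole series, and Pycr1 had none. After the filter on dim genes 34 members were tested among 12425 genes. The other 3 were dim: Cth, an enzyme of cysteine synthesis, ranged from 5.37 to 6.83 log2 intensity over the 42 arrays, the cystine carrier gene Slc7a11 from 4.58 to 5.63 and the lipoprotein receptor gene Vldlr from 5.13 to 6.60.

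The study followed 2 kinds of CD4+ T cell after KT3, an antibody to CD3 that triggers the T cell receptor complex. All mice were of the NOD strain, which is prone to autoimmune diabetes, and carried Foxp3-IRES-GFP, so that GFP marks cells expressing the regulatory factor Foxp3. Conventional cells (Tconv, GFP-) and regulatory cells (Treg) were sorted on a MoFlo from spleen as CD4+ cells negative for B220, CD8a, CD11b and CD11c, and amplified RNA of each sort was read on Affymetrix gene arrays. In vivo, females of 8 weeks were injected with KT3 intravenously and sampled untreated (0 h) or 2, 8, 24 and 72 h later, with 2 arrays per group, and for each cell type a single array shows mice given rat IgG, taken at 24 h. In culture, splenocytes were kept with KT3 at 1.25 µg/ml for the same times and sorted afterwards, and there the arrays numbered 1 came from females of 9 weeks and those numbered 2 from males of 14 weeks. Sex and age therefore cannot be told apart from the array number there. Whether the arrays of a group are from different animals is not in the labels, so the p-values speak only of the spread between arrays, which may be technical. In sorted but bulk RNA, fewer responding cells and less RNA per cell cannot be told apart.

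ATF4 is a transcription factor whose protein is made when the initiation factor eIF2 is phosphorylated under amino acid shortage or other stress, and in growing cells downstream of mTORC1. With C/EBP partners it binds a composite element in genes for amino acid carriers, tRNA synthetases, serine and asparagine synthesis and stress factors. Activated T cells are known to need amino acid uptake and serine-derived one-carbon units for nucleotide synthesis as they grow and divide. The module holds regulators, serine and one-carbon enzymes, other amino acid enzymes and transporters, and the results follow that order.

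The C/EBP-ATF element is known from the promoters of several members, so the reference promoters (250 bases before to 50 after the start, RefSeq, GRCm38.p6) were searched on both strands for the core TGATGNAA, where N is any base, and for the E-box CACGTG. These letter patterns do not overlap. The core was found for 9 of 34 members with an entry (26.5%), against 4.51% of 27025 genes, and the E-box for 4 (11.8%), against 8.09%. The core was found for Asns, Got1, Chac1, Nupr1, Slc1a4, Trib3, Slc7a11, Pycr1 and Vldlr, and the E-box for Aldh18a1, Nupr1, Cbs and Slc43a1. The stretches below, each read 5′ to 3′ on the gene's own strand, show the element in genes that rose (Asns, Got1), that did not pass the test in any response (Chac1), that only fell (Nupr1) or that were dim (Slc7a11), and an E-box in the proline synthesis gene Aldh18a1. The signal of Nupr1 was low, above the array median on only 9 arrays, and its falls were in cultured Tconv alone. Capitals mark the motif, and TTGCATCA is the core on the opposite strand.
Asns, minus strand, chr6:7693210-7693262: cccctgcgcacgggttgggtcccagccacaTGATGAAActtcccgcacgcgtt
Got1, minus strand, chr19:43524670-43524737: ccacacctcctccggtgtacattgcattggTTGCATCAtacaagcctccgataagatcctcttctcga
Chac1, plus strand, chr2:119351019-119351086: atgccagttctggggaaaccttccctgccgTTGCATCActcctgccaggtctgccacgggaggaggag
Nupr1, minus strand, chr7:126625543-126625610: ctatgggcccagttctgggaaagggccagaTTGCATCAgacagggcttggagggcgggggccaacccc
Slc7a11, minus strand, chr3:50443642-50443709: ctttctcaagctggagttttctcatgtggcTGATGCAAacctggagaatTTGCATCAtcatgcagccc
Aldh18a1, minus strand, chr19:40588487-40588552: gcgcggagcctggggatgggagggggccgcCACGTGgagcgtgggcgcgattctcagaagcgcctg
A match of letters is a description of these windows and says nothing about binding. Of the 9 genes with the core 6 were tested, and these 6 did not move alike, as the values below show.

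Across the arrays medians lay between 87.6 and 116.4 in intensity, and interquartile ranges between 1.645 and 3.208 log2 units. The narrowest were the cultured arrays numbered 1 of Tconv at 0 h (1.645) and 8 h (2.097) and of Treg at 0 h (2.192), so the main results for cultured Tconv are given with and without the first of these. Foxp3 read between 11.30 and 12.34 on Treg arrays and between 7.02 and 8.20 on Tconv arrays, in cultured Treg as well, for which the labels give the GFP- gate. In vivo, 25 markers of other cell types averaged higher on the arrays numbered 1 in each of 10 groups, by 0.76 (Treg, 0 h) to 1.91 (Treg, 72 h) on the log2 scale, and in culture the difference ran from -0.10 to 0.46. The arrays numbered 1 in vivo were mostly sorted once and those numbered 2 mostly sorted again. The part of these markers in the results was not tested.

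**Figure D1:**
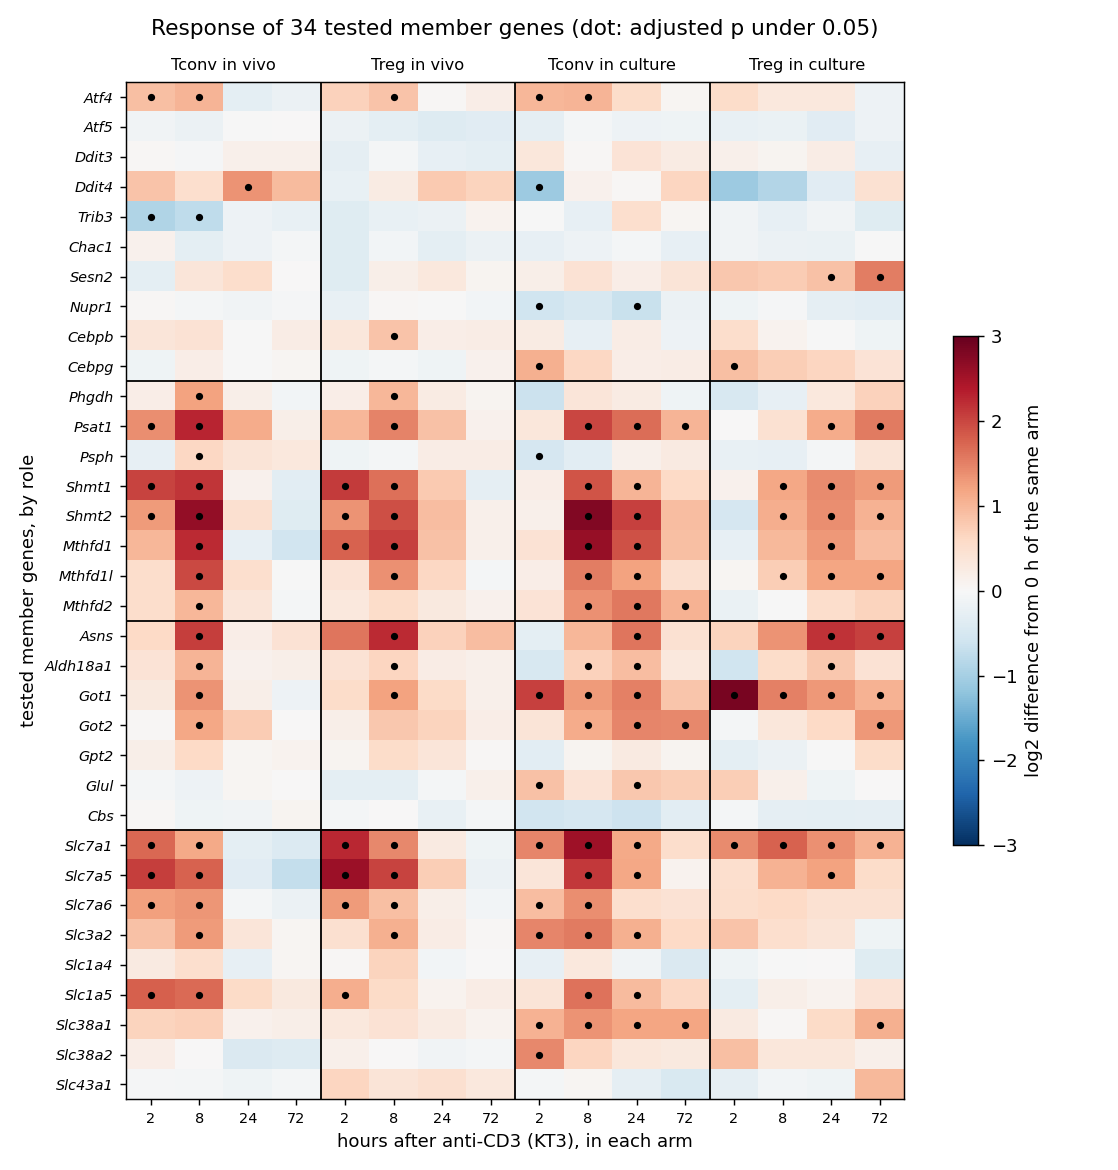
Log2 difference from 0 h of the same arm (colour, -3 to 3) for 34 tested members (rows, grouped from top to bottom as regulators, serine and one-carbon enzymes, other amino acid enzymes and transporters) at 2, 8, 24 and 72 h in Tconv and Treg in vivo and in culture (columns), with 2 arrays per group. A dot marks an adjusted p under 0.05 in limma's fit, and in vivo all dots but 1 lie at 2 and 8 h, while in cultured Treg most lie at 24 and 72 h.

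In Tconv in vivo the called members lay almost wholly at 2 and 8 h. A gene is called where its adjusted p was under 0.05 in limma's moderated test, with Benjamini-Hochberg adjustment over all 12425 genes. Every share of all tested genes is a share called in this way. Counts of members at an unadjusted p have no matching share here and cannot be set against these shares. At 2 h 8 members rose and 1 fell (26.5% of 34), where 3.51% of all tested genes were called, 3.04% higher and 0.467% lower. At 8 h 18 rose and 1 fell (55.9%), against 21% of all tested genes, 14.4% higher and 6.54% lower. At 24 h 1 member rose (2.94%), against 2.4%, 2.27% higher and 0.129% lower. At 72 h limma called 0 members, against 0.29% of all tested genes, 0.266% higher and 0.0241% lower. At an unadjusted p under 0.05 there were 2 members. The members' median log2 difference was 0.33, 0.86, 0.10 and 0.00 at these times, beside -0.05, -0.06, -0.01 and -0.01 over all tested genes.

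In Treg in vivo the called members lay at 2 and 8 h. At 2 h 7 members rose (20.6%), against 6.45% of all tested genes, 5.04% higher and 1.42% lower. At 8 h 15 rose (44.1%), against 9.67%, 6.36% higher and 3.31% lower. At 24 h limma called 0 members, against 0.483% of all tested genes, 0.451% higher and 0.0322% lower. At an unadjusted p under 0.05 there were 8 members, all higher. At 72 h limma called 0, against 0.0241%, and 0 members had an unadjusted p under 0.05. The members' medians were 0.33, 0.615, 0.24 and 0.09, beside -0.06, -0.02, 0.01 and 0.01 over all tested genes. With the array number as a replicate block, which goes with sex and age in culture and mostly with the sort in vivo, limma called 2 members in Tconv and 1 in Treg in vivo at 24 h. Levels of different genes are not compared here, since their probes differ.

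**Figure D2:**
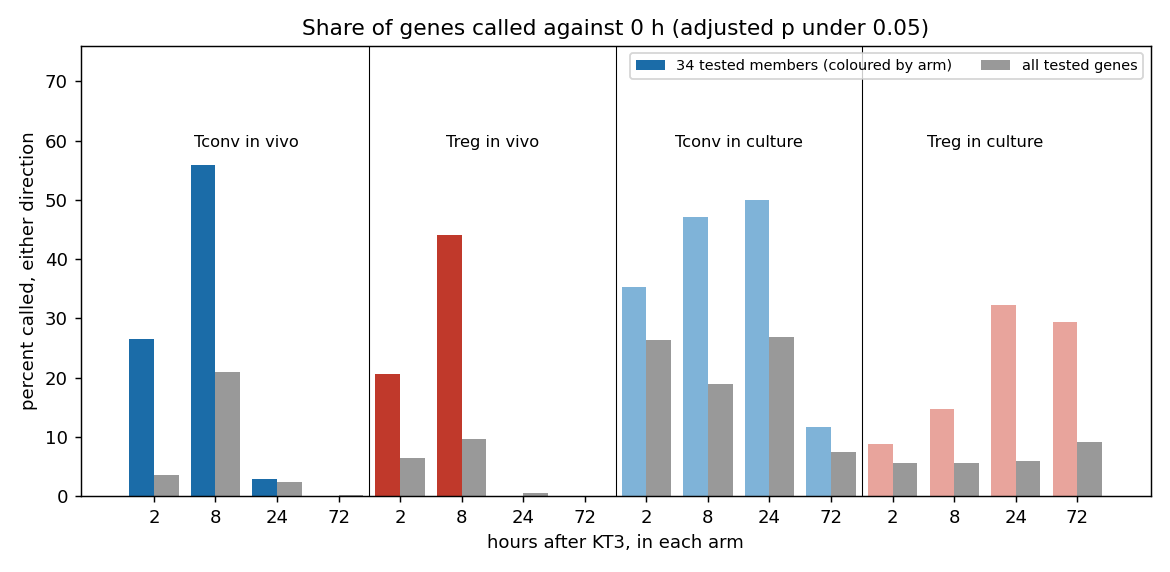
Percent of the 34 tested members (coloured bars) and of all 12425 tested genes (grey bars) called in either direction against 0 h, by hour after KT3 in each arm, 2 arrays per group. The members' share was 55.9% against 21% in Tconv in vivo at 8 h, and 35.3% against 26.3% in cultured Tconv at 2 h.

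These counts rested on few arrays. In Tconv at 2 h 4 of the 9 calls were left without the 2 h array numbered 1, and in Treg at 2 h 3 of 7 without the 2 h array numbered 1 and 4 without the 0 h array numbered 2. In Treg at 8 h 6 of 15 were left without the 8 h array numbered 1, 7 without the 0 h array numbered 2 and 9 without the 8 h array numbered 2. With only the in vivo arrays numbered 2, which leaves 1 array per in vivo group, 9 of the 19 calls in Tconv at 8 h and 1 of the 15 in Treg were made, and 0 and 2 at 2 h. In the values below the array numbered 1 always stands first, so that the difference on each number can be read off.

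Among the regulators, Atf4 read 8.13 and 8.17 at 0 h, 9.30 and 8.81 at 2 h, 9.23 and 9.11 at 8 h, 7.70 and 8.03 at 24 h, and 7.91 and 8.06 at 72 h in Tconv in vivo. Both arrays at 2 and 8 h lay above all 0, 24 and 72 h arrays. Against 0 h it rose by 0.90 (SE 0.24, adjusted p = 0.0347) at 2 h and 1.02 (SE 0.24, adjusted p = 0.00326) at 8 h, and between 8 and 24 h it fell, with a log2 difference of -1.31 (SE 0.24, adjusted p = 3.05e-04).

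In Treg in vivo Atf4 read 7.96 and 7.96 at 0 h, 8.69 and 8.63 at 2 h, 8.89 and 8.75 at 8 h, 7.92 and 8.05 at 24 h, and 8.15 and 8.19 at 72 h. The groups did not overlap between 0 h and 2 or 8 h, but at 2 h the difference of 0.70 (SE 0.24, adjusted p = 0.0981) missed the threshold, and at 8 h it rose by 0.86 (SE 0.24, adjusted p = 0.0237). The 8 h call in Treg and the 2 h call in Tconv were lost without single arrays, among them the 0 h array numbered 2 in both. The direction was kept throughout. The 2 h difference of 0.70 in Treg passed when the cultured Tconv 0 h array numbered 1, which enters it only through the shared spread, was left out.

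In cultured Tconv Atf4 read 7.56 and 8.78 at 0 h, 9.11 and 9.24 at 2 h, 9.32 and 9.05 at 8 h, 8.85 and 8.62 at 24 h, and 8.34 and 8.12 at 72 h. Atf4 in cultured Treg read 8.43 and 8.65 at 0 h, 9.14 and 9.02 at 2 h, 9.04 and 8.67 at 8 h, 8.88 and 8.80 at 24 h, and 8.52 and 8.27 at 72 h. The low value in cultured Tconv was the 0 h array numbered 1. Atf4 rose in cultured Tconv by 1.00 (SE 0.24, adjusted p = 0.00557) at 2 h and 1.01 (SE 0.24, adjusted p = 0.00446) at 8 h, and without that array the differences were 0.39 (adjusted p = 0.368) and 0.40 (adjusted p = 0.274). In cultured Treg the difference at 2 h was 0.54 (SE 0.24, adjusted p = 0.245) and did not pass. It passed when the cultured Tconv 0 h array numbered 1, which enters it only through the shared spread, was left out.

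Of the known stress targets of ATF4, Ddit3, which encodes the stress factor CHOP, passed the test in no response (0 of 16), as did Chac1, a glutathione-degrading enzyme gene, and Atf5, a related bZIP factor. In Tconv in vivo Ddit3 read 7.25 and 7.60 at 0 h, 7.56 and 7.38 at 2 h, and 7.43 and 7.33 at 8 h, and in Treg 7.62 and 7.62 at 0 h, 7.18 and 7.53 at 2 h, and 7.68 and 7.46 at 8 h. In cultured Tconv it read 7.39 and 7.37 at 0 h, 7.85 and 7.58 at 2 h, and 7.26 and 7.57 at 8 h. Ddit3 in cultured Treg read 7.53 and 7.49 at 0 h, 7.60 and 7.72 at 2 h, and 7.62 and 7.57 at 8 h. None of these differences passed, and the 2 h arrays lay above the 0 h arrays in culture and below them in Treg in vivo.

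Trib3, a pseudokinase gene induced by ATF4 and CHOP that holds the core element, fell in Tconv in vivo. It read 8.61 and 8.35 at 0 h, 7.55 and 7.62 at 2 h, 7.89 and 7.56 at 8 h, 8.54 and 8.10 at 24 h, and 8.24 and 8.26 at 72 h, so that the 2 and 8 h arrays lay below the others. The difference was -0.89 (SE 0.21, adjusted p = 0.0105) at 2 h and -0.76 (SE 0.21, adjusted p = 0.00893) at 8 h. The 2 h call was lost without the 0 h or the 2 h array numbered 1, and the 8 h call without the 0 h array numbered 1 or the 8 h array numbered 2. In Treg in vivo Trib3 read 7.78 and 7.72 at 0 h, 7.36 and 7.42 at 2 h, and 7.67 and 7.38 at 8 h, with a lower starting level, and did not pass (-0.36, SE 0.21, adjusted p = 0.446 at 2 h). The resting difference of Treg from Tconv in vivo was -0.73 (SE 0.21, adjusted p = 0.0509).

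Ddit4, whose product REDD1 restrains mTORC1, rose at 24 h in vivo and fell at 2 h in culture in Tconv. In Tconv in vivo it read 9.86 and 9.20 at 0 h, 10.81 and 9.98 at 2 h, 10.44 and 9.65 at 8 h, 11.09 and 10.65 at 24 h, and 10.56 and 10.40 at 72 h. It rose at 24 h by 1.34 (SE 0.34, adjusted p = 0.0314), a call lost without either 24 h array or the 0 h array numbered 2. In cultured Tconv it read 8.04 and 9.32 at 0 h, 7.30 and 7.89 at 2 h, 8.45 and 9.15 at 8 h, 8.76 and 8.68 at 24 h, and 9.35 and 9.32 at 72 h, and at 2 h both arrays lay below both 0 h arrays, a difference of -1.09 (SE 0.34, adjusted p = 0.0247). Without the 0 h array numbered 1 that difference was -1.73 (adjusted p = 0.00367), but it was not called without the 2 h array numbered 1 or the 0 h array numbered 2. Ddit4 in cultured Treg read 8.98 and 9.06 at 0 h and 7.79 and 8.05 at 2 h, and the difference of -1.10 (SE 0.34, adjusted p = 0.0612) missed the threshold. It passed when the cultured Tconv 0 h array numbered 1, which enters it only through the shared spread, was left out.

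Sesn2, a leucine-sensing inhibitor of mTORC1, was highest at 72 h in cultured Treg, and both 2 h arrays already lay above both 0 h arrays. There it read 6.77 and 6.73 at 0 h, 7.63 and 7.49 at 2 h, 7.56 and 7.44 at 8 h, 7.55 and 7.72 at 24 h, and 8.41 and 8.17 at 72 h, and the 72 h arrays lay above all others, with a difference of 1.54 (SE 0.26, adjusted p = 1.45e-04). The difference of 0.81 at 2 h did not pass. It passed when the cultured Tconv 0 h array numbered 1, which enters it only through the shared spread, was left out. At 24 h the difference was 0.89 (SE 0.26, adjusted p = 0.0386), a call lost without any 1 of the 4 cultured Treg arrays compared. In Treg in vivo Sesn2 at 72 h differed from 0 h by 0.09 (SE 0.26, adjusted p = 1.00).

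Of the C/EBP partners, Cebpg rose at 2 h in culture, by 1.07 (SE 0.27, adjusted p = 0.00774) in Tconv and 0.91 (SE 0.27, adjusted p = 0.0491) in Treg. Without the cultured Tconv 0 h array numbered 1 the Tconv difference was 0.64 (adjusted p = 0.291), and the Treg call was lost without either 2 h array or the 0 h array numbered 1. Cebpb rose in Treg in vivo at 8 h, by 0.85 (SE 0.20, adjusted p = 0.00604), a call lost without the 0 h or the 8 h array numbered 1. The rise was 1.09 on the arrays numbered 1 and 0.61 on those numbered 2. On the arrays numbered 1 the mean log2 level of the 4 tested neutrophil genes went from 6.55 to 8.68 over these 8 h and the mean of the 3 tested genes of B cells from 7.21 to 8.30. On those numbered 2 these means went from 5.86 to 5.71 and from 5.81 to 5.47. Their part in the Cebpb rise was not tested. Nupr1, a small stress-induced chromatin protein gene with both motifs, fell in cultured Tconv, though its signal was low. Over all arrays it ranged from 6.05 to 7.12 and lay above the array median on only 9. Its highest value was on the cultured Tconv 0 h array numbered 1, the one of narrowest range. The dim genes Cth (6.83) and Vldlr (6.60) also peaked there, and Slc7a11 (5.45) did not. The part of that narrow range in the Nupr1 falls was not tested. In cultured Tconv Nupr1 read 7.12 and 6.95 at 0 h, 6.25 and 6.62 at 2 h, and 6.29 and 6.45 at 24 h. In limma the difference was -0.60 (SE 0.20, adjusted p = 0.0319) at 2 h and -0.67 (SE 0.20, adjusted p = 0.0213) at 24 h. Both calls were lost without the 0 h array numbered 1 (-0.51 and -0.58).

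Of the serine and one-carbon enzymes all 8 tested rose in Tconv in vivo at 8 h, where 14.4% of all tested genes rose, with a median log2 difference of 2.07, and 3 of 8 rose at 2 h, against 3.04%. In Treg 3 of 8 rose at 2 h, against 5.04%, and 6 of 8 at 8 h, against 6.36%, with a median of 1.42. Psph at -0.07 (SE 0.17, adjusted p = 0.902) and Mthfd2 at 0.54 (SE 0.30, adjusted p = 0.344) did not pass there. At 24 and 72 h limma called 0 of 8 in either cell type, with 3 in Tconv and 5 in Treg at an unadjusted p under 0.05 at 24 h, and 0 at 72 h. The mean was highest at 8 h for all 8 enzymes in Tconv and for 6 of 8 in Treg.

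Shmt2, the mitochondrial serine hydroxymethyltransferase that hands the carbon of serine to folate, had the largest rise in Tconv. It read 8.25 and 8.00 at 0 h, 9.82 and 8.97 at 2 h, 10.87 and 10.68 at 8 h, 8.73 and 8.47 at 24 h, and 7.86 and 7.68 at 72 h in Tconv in vivo. Shmt2 in Treg in vivo read 7.88 and 7.80 at 0 h, 9.17 and 9.19 at 2 h, 9.77 and 9.79 at 8 h, 8.92 and 8.64 at 24 h, and 7.95 and 8.04 at 72 h. In both arms the 8 h arrays were the highest and the 2 h arrays the next. The rise was 1.27 (SE 0.30, adjusted p = 0.013) at 2 h and 2.65 (SE 0.30, adjusted p = 9.68e-07) at 8 h in Tconv, and 1.34 (SE 0.30, adjusted p = 0.00513) and 1.94 (SE 0.30, adjusted p = 1.34e-04) in Treg. The 8 h calls were kept without each array in turn, and the 2 h calls were lost without the 2 h array numbered 1 or the 0 h array numbered 2, in Tconv also without the 0 h array numbered 1.

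Its cytosolic counterpart Shmt1 was already high at 2 h. It read 7.19 and 7.11 at 0 h, 9.55 and 8.78 at 2 h, 9.41 and 9.20 at 8 h, 7.16 and 7.40 at 24 h, and 6.80 and 6.88 at 72 h in Tconv in vivo. Shmt1 in Treg in vivo read 7.15 and 6.98 at 0 h, 9.35 and 8.95 at 2 h, 8.85 and 8.58 at 8 h, 8.10 and 7.59 at 24 h, and 7.04 and 6.56 at 72 h. In both arms the 2 and 8 h arrays lay above all 0 h arrays. The differences at 2 and 8 h were 2.02 (SE 0.29, adjusted p = 6.15e-05) and 2.15 (SE 0.29, adjusted p = 9.77e-06) in Tconv, and 2.09 (SE 0.29, adjusted p = 2.98e-05) and 1.66 (SE 0.29, adjusted p = 5.41e-04) in Treg, and these 4 calls were kept without each array in turn.

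Psat1, the aminotransferase of the serine synthesis pathway, read 8.22 and 7.69 at 0 h, 9.79 and 8.89 at 2 h, 10.50 and 10.00 at 8 h, 9.17 and 8.97 at 24 h, and 8.32 and 7.93 at 72 h in Tconv in vivo. Psat1 in Treg in vivo read 8.09 and 7.66 at 0 h, 9.04 and 8.70 at 2 h, 9.60 and 9.10 at 8 h, 8.99 and 8.53 at 24 h, and 8.22 and 7.80 at 72 h. At each time the array numbered 1 was higher than the other, at 0 h as well. Psat1 rose in Tconv by 1.39 (SE 0.31, adjusted p = 0.00737) at 2 h and 2.30 (SE 0.31, adjusted p = 8.23e-06) at 8 h, and in Treg by 1.48 (SE 0.31, adjusted p = 0.00252) at 8 h. In Treg at 2 h the difference of 1.00 (SE 0.31, adjusted p = 0.0514) missed the threshold. That difference passed when the cultured Tconv 0 h array numbered 1, which enters it only through the shared spread, was left out. The 2 h call in Tconv was lost without the 2 h array numbered 1 or the 0 h array numbered 2, and the Treg call without the 8 h array numbered 1 or the 0 h array numbered 2. In Tconv it still read 9.17 and 8.97 at 24 h, a difference of 1.12 (SE 0.31, adjusted p = 0.0515) that did not pass. This difference passed when the cultured Tconv 0 h array numbered 1, which enters it only through the shared spread, was left out.

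The other serine synthesis genes are Phgdh and Psph. Phgdh, the first enzyme of the pathway, read 8.32 and 7.68 at 0 h, 8.67 and 7.73 at 2 h, 9.22 and 9.18 at 8 h, and 8.49 and 7.85 at 24 h in Tconv in vivo. Phgdh in Treg in vivo read 7.81 and 7.76 at 0 h, 8.05 and 7.92 at 2 h, 8.69 and 8.88 at 8 h, and 8.11 and 7.97 at 24 h. It rose at 8 h, by 1.20 (SE 0.32, adjusted p = 0.00805) and 1.00 (SE 0.32, adjusted p = 0.0486), and stood near its 0 h level at 2 h. Psph, the last enzyme, rose in Tconv at 8 h by 0.62 (SE 0.17, adjusted p = 0.00813). The Tconv calls of both were lost without the 8 h array numbered 1 or the 0 h array numbered 2, and the Treg call of Phgdh without any 1 of the 4 arrays compared.

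Of the folate enzymes, Mthfd1, the trifunctional cytosolic enzyme, read 8.90 and 8.50 at 0 h, 9.97 and 9.44 at 2 h, 11.01 and 10.85 at 8 h, 8.33 and 8.56 at 24 h, and 8.25 and 8.01 at 72 h in Tconv in vivo. Mthfd1 in Treg in vivo read 8.31 and 7.91 at 0 h, 10.15 and 9.62 at 2 h, 10.28 and 10.05 at 8 h, 9.22 and 8.76 at 24 h, and 8.71 and 7.80 at 72 h. It rose at 8 h by 2.23 (SE 0.36, adjusted p = 6.19e-05) in Tconv and 2.06 (SE 0.36, adjusted p = 4.51e-04) in Treg, and at 2 h in Treg by 1.78 (SE 0.36, adjusted p = 0.00176), a call lost without the 2 h array numbered 1 or the 0 h array numbered 2. In Tconv the Mthfd1 difference at 2 h was 1.00 (SE 0.36, adjusted p = 0.146) and did not pass, though the arrays did not overlap. It passed when the cultured Tconv 0 h array numbered 1, which enters it only through the shared spread, was left out. At 24 h the Tconv arrays of 8.33 and 8.56 overlapped the 0 h arrays of 8.90 and 8.50. Mthfd1l, the mitochondrial formate-producing enzyme, rose at 8 h by 1.99 (SE 0.21, adjusted p = 4.90e-07) in Tconv and 1.36 (SE 0.21, adjusted p = 1.66e-04) in Treg, and differed by 0.54 (SE 0.21) and 0.40 (SE 0.21) at 2 h. Mthfd2, the mitochondrial dehydrogenase, read 8.95 and 8.55 at 0 h, 9.49 and 9.06 at 2 h, 9.92 and 9.58 at 8 h, and 9.35 and 8.88 at 24 h in Tconv in vivo. It rose at 8 h by 1.00 (SE 0.30, adjusted p = 0.0173). In Treg Mthfd2 read 8.63 and 8.36 at 0 h and 9.39 and 8.68 at 8 h and did not pass (0.54, SE 0.30, adjusted p = 0.344).

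Successive times were also compared. In Tconv in vivo 6 members rose between 2 and 8 h, against 8.47% of all tested genes called, among them Mthfd1l by 1.45 (SE 0.21, adjusted p = 1.76e-04) and Shmt2 by 1.38 (SE 0.30, adjusted p = 0.00606). With quantile normalization the split was 4 higher and 1 lower. Only 1 of these 6 was left without the 8 h array numbered 1 and 2 without the 2 h array numbered 2. Between 8 and 24 h 16 members fell and Trib3 rose, against 19.4% called, with Mthfd1 at -2.48 (SE 0.36, adjusted p = 1.31e-05), Shmt2 at -2.17 (SE 0.30, adjusted p = 8.74e-06) and Slc7a5 at -2.11 (SE 0.32, adjusted p = 3.02e-05). Of those 17 calls 10 were left without the 8 h array numbered 1 and 11 without the 24 h array numbered 2. In Treg in vivo 1 member rose between 2 and 8 h (Mthfd1l, 0.96, SE 0.21, adjusted p = 0.0375), against 0.531% called, and 5 fell between 8 and 24 h, against 4.84%. The first call was lost without any 1 of the 4 arrays compared, and of the 5 later ones 1 or 2 were left without any 1 of the 4. Leaving out the cultured Tconv 0 h array numbered 1, which enters these steps only through the shared spread, gave 10 calls for the earlier Tconv step and 2 and 10 for the Treg steps. With the replicate block there were 10 for the earlier Tconv and 10 for the later Treg step.

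**Figure D3:**
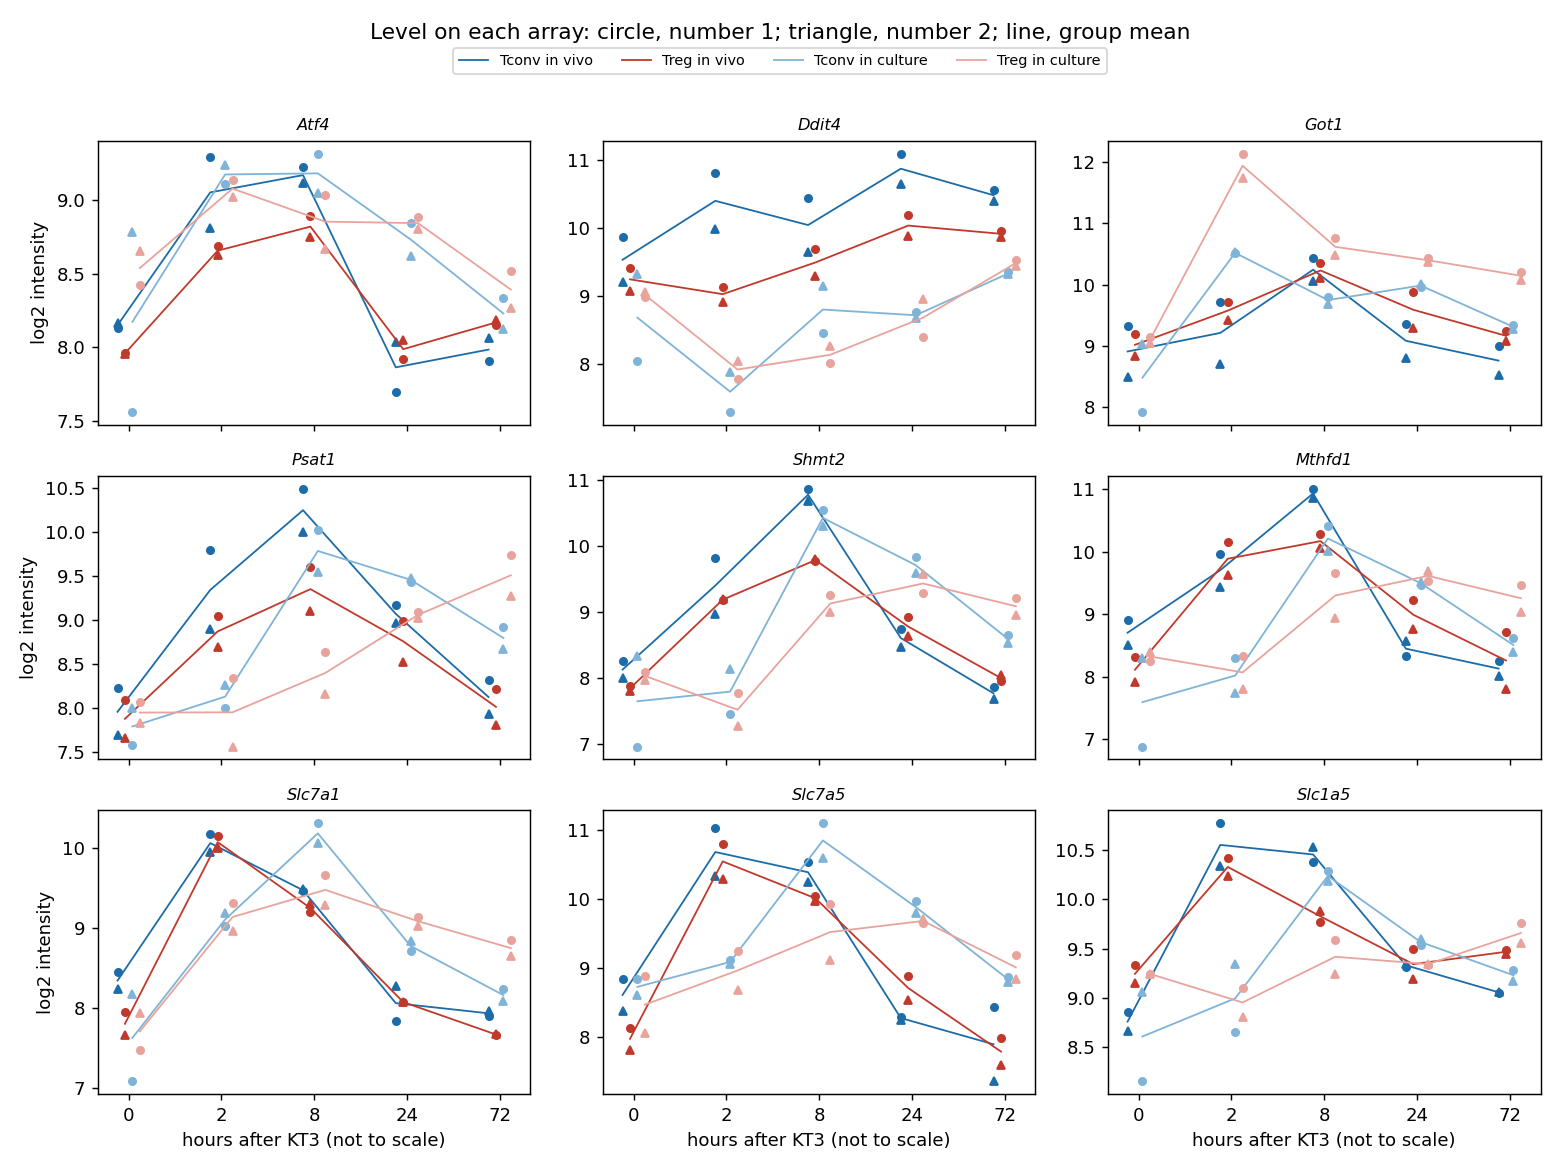
Log2 intensity (vertical axes) of 9 members on each array by hours after KT3 (horizontal axes, not to scale) in Tconv and Treg in vivo and in culture, with circles for arrays numbered 1, triangles for arrays numbered 2 and lines through group means. Shmt2 in Tconv in vivo goes from 8.25 and 8.00 at 0 h to 10.87 and 10.68 at 8 h and 8.73 and 8.47 at 24 h, and the low 0 h circle of cultured Tconv is the array of narrowest range.

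In culture none of the 8 serine and one-carbon enzymes rose at 2 h in either cell type. In Tconv limma called 1, Psph, which was lower, with a difference of -0.50 (SE 0.17, adjusted p = 0.0292), a call lost without any 1 of the 4 arrays compared, and in Treg 0, also at an unadjusted p under 0.05. At 8 h 6 of 8 rose in Tconv and 3 of 8 in Treg, at 24 h 6 and 5, and at 72 h 2 and 4. Without the cultured Tconv 0 h array numbered 1 the Tconv counts were 5, 2 and 0 at 8, 24 and 72 h. The share of all tested genes that rose was also lower at each of these times without that array. Over all members, with all arrays, 9 rose and 3 fell in cultured Tconv at 2 h (35.3%), against 26.3% of all tested genes called, 19.5% higher and 6.8% lower. At 8 h 16 rose (47.1%), against 18.9%, 15.7% higher and 3.22% lower. At 24 h 16 rose and 1 fell (50%), against 26.8%, 19.4% higher and 7.48% lower. At 72 h 4 rose (11.8%), against 7.55%, 6.65% higher and 0.901% lower. Quantile normalization moved the share of all calls that were higher from 74.2% to 51.3% at 2 h, 83% to 59.3% at 8 h, 72.1% to 52.3% at 24 h and 88.1% to 57.3% at 72 h in cultured Tconv, and in cultured Treg from 71.2% to 48.9%, 80.5% to 50.5%, 84.3% to 49.5% and 80.6% to 56.1%. In vivo it moved that share from 86.7% to 64.2% at 2 h and 68.8% to 54% at 8 h in Tconv, and from 78.1% to 60.3% and 65.8% to 52.4% in Treg. Each of these comparisons uses the 0 h arrays of the arm, which the 4 times share.

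In cultured Treg 3 members rose at 2 h (8.82%), against 5.64% of all tested genes, 4.02% higher and 1.63% lower. At 8 h 5 rose (14.7%), against 5.61%, 4.52% higher and 1.09% lower. At 24 h 11 rose (32.4%), against 5.95%, 5.01% higher and 0.934% lower. At 72 h 10 rose (29.4%), against 9.11%, 7.34% higher and 1.77% lower. The members' medians were -0.03, 0.24, 0.35 and 0.46 there, beside -0.02, 0.07, 0.07 and 0.05 over all tested genes. In cultured Tconv they were 0.22, 0.67, 0.53 and 0.35, beside 0.06, 0.02, 0.23 and 0.15. With quantile normalization the split of calls in cultured Tconv was 8 higher and 6 lower at 2 h and 17 higher and 4 lower at 8 h, and in cultured Treg 3 and 2 at 2 h and 3 and 1 at 8 h. With arrays centred on their medians it was 9 higher and 0 lower in cultured Tconv at 2 h.

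The cultured Tconv counts turned on the 0 h arrays. Leaving out the 0 h array numbered 1 also lowered the share of all tested genes called in cultured Tconv at each time. The shares given above for the fit of all arrays therefore cannot be set beside counts made without that array. A lower member count in that fit does not by itself show a lost response of the members. Without the 0 h array numbered 1 limma called 4, 10, 2 and 0 members at 2, 8, 24 and 72 h. Without the 0 h array numbered 2 it called 19, 20, 21 and 19. Without the treated array numbered 1 the count was 5 at 2 h, 8 at 24 h and 1 at 72 h, and 1 at 72 h also without the other 72 h array. In cultured Treg 2 to 4 of the 11 calls at 24 h were left without the 0 h array numbered 1 or either 24 h array, 3 of 5 at 8 h without the 0 h array numbered 1 and 1 without the 8 h array numbered 1. At 72 h 6 of 10 were left without the 0 h array numbered 1 and 4 without the 72 h array numbered 1. Without the cultured Tconv 0 h array numbered 1, which enters these only through the shared spread, limma called 10 at 2 h and 10 at 8 h in cultured Treg. Under the replicate block it called 5 and 8 there.

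Shmt2 read 6.96 and 8.33 at 0 h, 7.46 and 8.13 at 2 h, 10.54 and 10.30 at 8 h, 9.83 and 9.58 at 24 h, and 8.65 and 8.52 at 72 h in cultured Tconv. Shmt2 in cultured Treg read 8.09 and 7.97 at 0 h, 7.77 and 7.27 at 2 h, 9.25 and 9.00 at 8 h, 9.29 and 9.57 at 24 h, and 9.21 and 8.95 at 72 h. In cultured Treg both 2 h arrays lay below both 0 h arrays. It rose in Tconv by 2.77 (SE 0.30, adjusted p = 9.79e-07) at 8 h, and by 2.09 (adjusted p = 2.84e-05) without the 0 h array numbered 1. In Treg the rise was 1.09 (SE 0.30, adjusted p = 0.0288) at 8 h and 1.40 (SE 0.30, adjusted p = 0.00575) at 24 h, and the 8 h call was lost without any 1 of the 4 arrays compared.

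Mthfd1 read 6.88 and 8.30 at 0 h, 8.30 and 7.73 at 2 h, 10.41 and 10.01 at 8 h, 9.47 and 9.51 at 24 h, and 8.62 and 8.39 at 72 h in cultured Tconv. It rose by 2.62 (SE 0.36, adjusted p = 1.52e-05) at 8 h and 1.90 (SE 0.36, adjusted p = 0.00138) at 24 h. Without the 0 h array numbered 1 these were 1.91 (adjusted p = 9.53e-04) and 1.19 (adjusted p = 0.12). Mthfd1 in cultured Treg read 8.25 and 8.39 at 0 h, 8.33 and 7.80 at 2 h, 9.66 and 8.93 at 8 h, and 9.53 and 9.70 at 24 h, with a rise at 24 h of 1.29 (SE 0.36, adjusted p = 0.0305) that was lost without the 0 h array numbered 1 or either 24 h array. Shmt1 rose in cultured Tconv at 8 h by 1.88 (SE 0.29, adjusted p = 6.50e-05), or 1.99 (adjusted p = 5.62e-04) without that Tconv array. Its arrays in cultured Treg read 6.89 and 6.87 at 0 h, 7.30 and 6.71 at 2 h, 8.38 and 7.71 at 8 h, 8.16 and 8.44 at 24 h, and 8.47 and 7.84 at 72 h, and it rose there by 1.42 (SE 0.29, adjusted p = 0.00375) at 24 h, a call lost without the 24 h array numbered 2.

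Psat1 was highest at 72 h in cultured Treg, where it read 8.06 and 7.83 at 0 h, 8.34 and 7.56 at 2 h, 8.64 and 8.16 at 8 h, 9.09 and 9.02 at 24 h, and 9.74 and 9.27 at 72 h. The 72 h arrays were the highest of that arm, a difference of 1.56 (SE 0.31, adjusted p = 9.98e-04) that was kept without each array in turn. In cultured Tconv it read 7.58 and 7.99 at 0 h, 8.00 and 8.26 at 2 h, 10.02 and 9.55 at 8 h, 9.44 and 9.48 at 24 h, and 8.92 and 8.67 at 72 h, highest at 8 h with a difference of 2.00 (SE 0.31, adjusted p = 5.65e-05), or 1.79 (adjusted p = 0.00208) without the 0 h array numbered 1. Mthfd2 read 7.52 and 8.47 at 0 h, 8.53 and 8.27 at 2 h, 9.61 and 9.11 at 8 h, 9.64 and 9.49 at 24 h, and 9.07 and 8.99 at 72 h in cultured Tconv. It rose by 1.37 (SE 0.30, adjusted p = 0.00206) at 8 h and 1.57 (SE 0.30, adjusted p = 0.0016) at 24 h. Without the 0 h array numbered 1 neither was called (0.90 and 1.10). In cultured Treg Mthfd2 read 8.52 and 8.42 at 0 h, 8.61 and 7.93 at 2 h, 8.75 and 8.15 at 8 h, 9.06 and 8.93 at 24 h, and 9.27 and 8.99 at 72 h and passed at no time. Phgdh passed at no time in culture, and read 8.69 and 8.10 at 0 h, 7.92 and 7.60 at 2 h, and 8.99 and 8.52 at 8 h in cultured Tconv. Phgdh in cultured Treg read 8.59 and 7.63 at 0 h, 7.73 and 7.54 at 2 h, 7.86 and 7.86 at 8 h, and 9.18 and 8.44 at 72 h.

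Between 2 and 8 h 12 members rose in cultured Tconv, against 9.7% of all tested genes called, 4.56% higher and 5.13% lower. They included Shmt2 (2.63, SE 0.30, adjusted p = 1.77e-06), Mthfd1 (2.19, SE 0.36, adjusted p = 1.57e-04) and Slc7a5 (1.75, SE 0.32, adjusted p = 6.24e-04). This step does not use the 0 h arrays. Between 8 and 24 h 1 member rose and 2 fell in cultured Tconv, against 4.54% called, a split of 0 and 3 with quantile normalization and of 1 and 1 with median centring. These were Trib3 (0.74, SE 0.21, adjusted p = 0.0367), Slc7a1 (-1.40, SE 0.24, adjusted p = 0.00172) and Slc7a6 (-0.90, SE 0.24, adjusted p = 0.0273), and 0, 1 and 2 calls were left without the 8 h array numbered 1, the 24 h array numbered 1 and the 24 h array numbered 2. With the replicate block there were 5. In cultured Treg 4 members rose between 2 and 8 h and Got1 fell, against 4.27% called, with Shmt2 at 1.61 (SE 0.30, adjusted p = 0.00136), and 2 of these 5 calls were left without the 8 h array numbered 1 and 3 without either 2 h array. With quantile normalization or median centring the split was 2 higher and 1 lower. Between 8 and 24 h limma called 0 members in cultured Treg, with 2 at an unadjusted p under 0.05, and 0% of all tested genes.

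Of the other amino acid enzymes, Asns, which makes asparagine and holds the core element near its start, read 6.35 and 5.50 at 0 h, 6.96 and 6.08 at 2 h, 8.37 and 7.64 at 8 h, 6.46 and 5.81 at 24 h, and 7.05 and 5.67 at 72 h in Tconv in vivo. Asns in Treg in vivo read 6.46 and 6.10 at 0 h, 8.19 and 7.58 at 2 h, 8.87 and 8.17 at 8 h, 7.39 and 6.53 at 24 h, and 8.23 and 6.20 at 72 h. The array numbered 1 was higher than the other in each of these groups. Asns rose at 8 h by 2.08 (SE 0.52, adjusted p = 0.00448) in Tconv and 2.24 (SE 0.52, adjusted p = 0.00598) in Treg, both lost without the 8 h array numbered 1 or the 0 h array numbered 2. Its standard error was the largest among the members.

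In cultured Tconv Asns read 6.44 and 5.91 at 0 h, 6.02 and 5.73 at 2 h, 7.17 and 7.15 at 8 h, 8.33 and 7.22 at 24 h, and 6.74 and 6.52 at 72 h. Asns in cultured Treg read 6.35 and 6.08 at 0 h, 7.09 and 6.65 at 2 h, 7.86 and 7.25 at 8 h, 8.35 and 8.39 at 24 h, and 8.52 and 8.00 at 72 h. In Treg the 24 and 72 h arrays lay above the 0 and 2 h arrays, with differences of 2.16 (SE 0.52, adjusted p = 0.0126) and 2.05 (SE 0.52, adjusted p = 0.0101). The 24 h call was lost without the 0 h array numbered 1 or either 24 h array, and the 72 h call without the 72 h array numbered 1 or the 0 h array numbered 2. In Tconv Asns rose at 24 h by 1.60 (SE 0.52, adjusted p = 0.0282), and without the 0 h array numbered 1 the difference was 1.87 (adjusted p = 0.199).

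Got1, the cytosolic aspartate aminotransferase, had its largest rises in culture at 2 h. It read 7.92 and 9.04 at 0 h, 10.51 and 10.53 at 2 h, 9.80 and 9.69 at 8 h, 9.96 and 10.01 at 24 h, and 9.34 and 9.27 at 72 h in cultured Tconv. Got1 in cultured Treg read 9.15 and 9.04 at 0 h, 12.14 and 11.74 at 2 h, 10.76 and 10.48 at 8 h, 10.43 and 10.36 at 24 h, and 10.21 and 10.08 at 72 h. Both 2 h arrays were the highest of their arm, and in cultured Treg they stood above every other array of the study. The rise at 2 h was 2.04 (SE 0.32, adjusted p = 9.77e-05) in Tconv, or 1.48 (adjusted p = 0.00983) without the 0 h array numbered 1, and 2.85 (SE 0.32, adjusted p = 1.02e-06) in Treg, and both were kept without each array in turn.

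In vivo Got1 read 9.33 and 8.48 at 0 h, 9.72 and 8.70 at 2 h, 10.43 and 10.05 at 8 h, 9.36 and 8.80 at 24 h, and 9.00 and 8.52 at 72 h in Tconv. Got1 in Treg in vivo read 9.19 and 8.84 at 0 h, 9.72 and 9.43 at 2 h, 10.35 and 10.11 at 8 h, 9.88 and 9.29 at 24 h, and 9.25 and 9.08 at 72 h. It was highest at 8 h, with rises of 1.34 (SE 0.32, adjusted p = 0.0035) and 1.22 (SE 0.32, adjusted p = 0.0158), and at 2 h the differences of 0.30 (SE 0.32) and 0.56 (SE 0.32) did not pass. The 8 h calls were lost without the 8 h array numbered 1 or the 0 h array numbered 2, and in Treg also without the 8 h array numbered 2.

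Got2, the mitochondrial aminotransferase, read 8.21 and 9.18 at 0 h, 9.06 and 9.11 at 2 h, 9.69 and 9.94 at 8 h, 10.12 and 10.19 at 24 h, and 10.13 and 10.15 at 72 h in cultured Tconv. Got2 in cultured Treg read 9.33 and 9.08 at 0 h, 9.40 and 8.91 at 2 h, 9.64 and 9.46 at 8 h, 9.73 and 9.85 at 24 h, and 10.59 and 10.42 at 72 h. It was highest at 72 h in Treg, where it rose by 1.30 (SE 0.27, adjusted p = 0.00191). In Tconv it rose at 72 h by 1.44 (SE 0.27, adjusted p = 0.00207), and without the 0 h array numbered 1 by 0.95 (adjusted p = 0.151). In Tconv in vivo it rose at 8 h by 1.16 (SE 0.27, adjusted p = 0.00275), a call lost without the 0 h array numbered 2. Aldh18a1, which opens proline synthesis and holds the E-box shown above, rose at 8 h in vivo by 1.01 (SE 0.20, adjusted p = 6.78e-04) in Tconv and 0.65 (SE 0.20, adjusted p = 0.0425) in Treg, the latter lost without any 1 of the 4 arrays compared. Glul, glutamine synthetase, rose in cultured Tconv at 2 h by 0.87 (SE 0.27, adjusted p = 0.022), or 0.26 (adjusted p = 0.71) without the 0 h array numbered 1. The alanine aminotransferase Gpt2 and the cystathionine synthase Cbs passed in 0 of 16 responses.

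Of the amino acid transporters 4 of 9 rose at 2 h in vivo in both cell types, Slc7a1, Slc7a5, Slc7a6 and Slc1a5, where 3.04% of all tested genes rose in Tconv and 5.04% in Treg. At 8 h 5 of 9 rose in Tconv, against 14.4%, and 4 of 9 in Treg, against 6.36%. In cultured Tconv 5, 6, 5 and 1 of 9 rose at 2, 8, 24 and 72 h, and leaving out the 0 h array numbered 1 gave 1, 5, 0 and 0. The shares of all tested genes that rose in cultured Tconv were 19.5%, 15.7%, 19.4% and 6.65% with all arrays. Each of these shares was lower without that array. In vivo at 24 and 72 h limma called 0 of 9 in either cell type, with 1 in Tconv and 1 in Treg at an unadjusted p under 0.05 at 24 h and 1 and 0 at 72 h. The mean of 6 of 9 transporters was highest at 2 h in Treg and of 4 of 9 in Tconv.

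Slc7a5, the light chain of the large neutral amino acid carrier that takes up leucine, read 8.84 and 8.39 at 0 h, 11.02 and 10.33 at 2 h, 10.53 and 10.24 at 8 h, 8.30 and 8.26 at 24 h, and 8.44 and 7.36 at 72 h in Tconv in vivo. Slc7a5 in Treg in vivo read 8.14 and 7.82 at 0 h, 10.79 and 10.29 at 2 h, 10.04 and 9.97 at 8 h, 8.88 and 8.54 at 24 h, and 7.99 and 7.60 at 72 h. The 2 h and 8 h arrays lay above all others of their arm. The rise was 2.06 (SE 0.32, adjusted p = 1.69e-04) at 2 h and 1.77 (SE 0.32, adjusted p = 2.47e-04) at 8 h in Tconv, and 2.56 (SE 0.32, adjusted p = 7.33e-06) and 2.03 (SE 0.32, adjusted p = 1.88e-04) in Treg, kept without each array in turn. Its heavy chain partner Slc3a2 read 10.59 and 10.12 at 0 h, 11.51 and 10.96 at 2 h, 11.76 and 11.52 at 8 h, 10.75 and 10.69 at 24 h, and 10.46 and 10.37 at 72 h in Tconv in vivo. Slc3a2 in Treg in vivo read 10.34 and 10.26 at 0 h, 10.90 and 10.67 at 2 h, 11.36 and 11.36 at 8 h, 10.55 and 10.49 at 24 h, and 10.30 and 10.35 at 72 h. Slc3a2 rose at 8 h by 1.28 (SE 0.28, adjusted p = 0.00133) in Tconv and 1.06 (SE 0.28, adjusted p = 0.0142) in Treg. The Treg call of Slc3a2 was lost without any 1 of the 4 arrays compared.

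Slc7a1, a carrier of arginine and lysine, was the member called most often, in 11 of 16 responses. It read 8.44 and 8.24 at 0 h, 10.17 and 9.94 at 2 h, 9.45 and 9.48 at 8 h, 7.84 and 8.28 at 24 h, and 7.90 and 7.96 at 72 h in Tconv in vivo. Slc7a1 in Treg in vivo read 7.95 and 7.66 at 0 h, 10.14 and 9.99 at 2 h, 9.20 and 9.29 at 8 h, 8.08 and 8.07 at 24 h, and 7.66 and 7.68 at 72 h. The 2 h arrays were the highest of both arms, with rises of 1.71 (SE 0.24, adjusted p = 3.41e-05) and 2.27 (SE 0.24, adjusted p = 5.60e-07). In cultured Tconv it read 7.08 and 8.17 at 0 h, 9.03 and 9.18 at 2 h, 10.30 and 10.05 at 8 h, 8.71 and 8.84 at 24 h, and 8.24 and 8.08 at 72 h. Slc7a1 in cultured Treg read 7.48 and 7.93 at 0 h, 9.31 and 8.96 at 2 h, 9.66 and 9.28 at 8 h, 9.13 and 9.03 at 24 h, and 8.85 and 8.65 at 72 h. In both arms the mean was highest at 8 h. The rise at 8 h was 2.55 (SE 0.24, adjusted p = 1.07e-07) in Tconv, or 2.01 (adjusted p = 2.04e-06) without the 0 h array numbered 1, and 1.77 (SE 0.24, adjusted p = 2.16e-05) in Treg. At 2 h in culture it had risen by 1.48 (SE 0.24, adjusted p = 1.24e-04) and 1.43 (SE 0.24, adjusted p = 2.53e-04), both kept without each array in turn.

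Slc1a5, which takes up glutamine and other small neutral amino acids, read 8.86 and 8.66 at 0 h, 10.77 and 10.33 at 2 h, 10.37 and 10.53 at 8 h, 9.31 and 9.35 at 24 h, and 9.06 and 9.06 at 72 h in Tconv in vivo. Slc1a5 in Treg in vivo read 9.34 and 9.15 at 0 h, 10.41 and 10.24 at 2 h, 9.77 and 9.88 at 8 h, 9.49 and 9.19 at 24 h, and 9.49 and 9.45 at 72 h. At 2 h it rose by 1.79 (SE 0.23, adjusted p = 1.13e-05) and 1.08 (SE 0.23, adjusted p = 0.00282), and at 8 h by 1.69 (SE 0.23, adjusted p = 8.98e-06) in Tconv, while the Treg difference of 0.58 (SE 0.23, adjusted p = 0.122) did not pass. That Treg difference passed when the cultured Tconv 0 h array numbered 1, which enters it only through the shared spread, was left out. The 2 h call in Treg was lost without the 2 h array numbered 1 or the 0 h array numbered 2. In cultured Tconv it read 8.16 and 9.06 at 0 h, 8.65 and 9.34 at 2 h, 10.29 and 10.18 at 8 h, 9.54 and 9.60 at 24 h, and 9.29 and 9.17 at 72 h. Slc1a5 in cultured Treg read 9.24 and 9.25 at 0 h, 9.10 and 8.81 at 2 h, 9.59 and 9.24 at 8 h, 9.34 and 9.35 at 24 h, and 9.75 and 9.56 at 72 h. It rose in cultured Tconv at 8 h by 1.62 (SE 0.23, adjusted p = 2.15e-05), or 1.17 (adjusted p = 0.00111) without the 0 h array numbered 1, and passed at no time in cultured Treg.

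In cultured Tconv Slc7a5 read 8.84 and 8.62 at 0 h, 9.11 and 9.06 at 2 h, 11.09 and 10.60 at 8 h, 9.96 and 9.80 at 24 h, and 8.88 and 8.79 at 72 h. Slc7a5 in cultured Treg read 8.88 and 8.06 at 0 h, 9.24 and 8.69 at 2 h, 9.92 and 9.12 at 8 h, 9.66 and 9.71 at 24 h, and 9.19 and 8.84 at 72 h. It rose in Tconv at 8 h by 2.11 (SE 0.32, adjusted p = 5.31e-05), or 2.23 (adjusted p = 5.36e-04) without the 0 h array numbered 1, and in Treg at 24 h by 1.21 (SE 0.32, adjusted p = 0.0249), which was lost without either 24 h array or the 0 h array numbered 2. Slc3a2 read 9.40 and 10.66 at 0 h, 11.35 and 11.64 at 2 h, 11.73 and 11.43 at 8 h, and 11.31 and 10.90 at 24 h in cultured Tconv. Slc3a2 in cultured Treg read 10.73 and 10.52 at 0 h, 11.71 and 11.23 at 2 h, 11.35 and 10.90 at 8 h, and 11.03 and 10.97 at 24 h. It rose in Tconv by 1.46 (SE 0.28, adjusted p = 7.22e-04) at 2 h, and passed at no time in Treg. With the Tconv 0 h array numbered 1 left out the Tconv difference was 0.83 and did not pass. The Treg difference of 0.85 at 2 h then passed, though that array enters it only through the shared spread.

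Slc38a1 and Slc38a2, carriers of glutamine and alanine, were called in culture and not in vivo with all arrays in the fit. The difference between the settings did not pass for either, with an adjusted p in limma's F-test of 0.463 and 0.515 in Tconv and of 0.337 and 0.988 in Treg. Slc38a2 read 8.44 and 10.38 at 0 h, 10.82 and 10.90 at 2 h, and 9.82 and 10.29 at 8 h in cultured Tconv. Slc38a2 in cultured Treg read 9.73 and 10.85 at 0 h, 11.00 and 11.39 at 2 h, and 10.50 and 10.75 at 8 h. It rose in Tconv at 2 h by 1.45 (SE 0.37, adjusted p = 0.00784), but its 0 h arrays were far apart, and without the one numbered 1 the difference was 0.48 (adjusted p = 0.507). In vivo it read 10.20 and 10.38 at 0 h, 10.30 and 10.65 at 2 h, and 10.15 and 10.46 at 8 h in Tconv. Slc38a2 in Treg in vivo read 10.40 and 10.26 at 0 h, 10.49 and 10.49 at 2 h, and 10.42 and 10.27 at 8 h.

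Slc38a1 read 7.29 and 9.31 at 0 h, 9.28 and 9.42 at 2 h, 9.47 and 9.84 at 8 h, 9.41 and 9.58 at 24 h, and 9.48 and 9.50 at 72 h in cultured Tconv. All but 1 of these arrays lay between 9.28 and 9.84, and the exception was the 0 h array numbered 1. At 2, 8, 24 and 72 h the differences were 1.05, 1.35, 1.19 and 1.19 with that array and, not called, 0.05, 0.35, 0.19 and 0.18 without it. In Tconv in vivo Slc38a1 read 9.42 and 9.59 at 0 h, 10.19 and 10.14 at 2 h, and 10.15 and 10.28 at 8 h. In limma the differences of 0.66 (SE 0.34, adjusted p = 0.421) and 0.71 (SE 0.34, adjusted p = 0.152) did not pass. Both passed when the cultured Tconv 0 h array numbered 1, which enters them only through the shared spread, was left out. Slc38a1 in cultured Treg read 8.68 and 9.29 at 0 h, 9.45 and 9.04 at 2 h, 9.10 and 8.92 at 8 h, 9.52 and 9.58 at 24 h, and 10.05 and 10.05 at 72 h, with a rise of 1.07 (SE 0.34, adjusted p = 0.0494) at 72 h that was lost without the 0 h array numbered 1 or either 72 h array. Slc7a6, an exchanger of cationic for neutral amino acids, rose at 2 h in vivo by 1.23 (SE 0.24, adjusted p = 0.00201) in Tconv and 1.27 (SE 0.24, adjusted p = 9.12e-04) in Treg, both lost without the 2 h array numbered 1. The neutral amino acid carriers Slc1a4 and Slc43a1 passed in 0 of 16 responses.

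The in vivo and cultured responses differed for several members. A moderated F-test in limma over the 4 time differences called 11 of 34 members in Tconv (32.4%, against 6.37% of all tested genes) and 13 in Treg (38.2%, against 10.9%). The settings also differ in the mice's age and in part sex, and the labels say only in vivo whether cells were sorted again. Age, in part sex, and how the cells were sorted therefore could not be separated from the setting. The Tconv count was 6 without the cultured 2 h array numbered 1 and 23 without the cultured 0 h array numbered 2. It was 13 without the cultured 0 h array numbered 1. With the in vivo arrays numbered 2 alone the test called 0 in Tconv and 5 in Treg. Each response is taken against the 0 h arrays of its own setting, so the 4 time differences of a cell type share those controls.

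At 2 h 5 members differed between settings in Tconv (4 higher in vivo, 1 lower), against 5.04% of all tested genes, and 7 in Treg (6 higher, 1 lower), against 3.68%. With quantile normalization the Tconv split was 5 higher and 2 lower. Higher in vivo in both were Shmt1, with differences of the responses of 1.82 (SE 0.41, adjusted p = 0.0115) in Tconv and 1.96 (SE 0.41, adjusted p = 0.00568) in Treg, Slc7a5 (1.70, SE 0.46, adjusted p = 0.0316, and 2.07, SE 0.46, adjusted p = 0.00819) and Slc1a5 (1.40, SE 0.32, adjusted p = 0.0127, and 1.37, SE 0.32, adjusted p = 0.0136). In Treg Mthfd1 (2.03, SE 0.50, adjusted p = 0.0198), Shmt2 (1.86, SE 0.43, adjusted p = 0.0113) and Aldh18a1 (1.02, SE 0.29, adjusted p = 0.044) were also higher in vivo. Ddit4 was higher in vivo in Tconv, by 1.95 (SE 0.49, adjusted p = 0.0226). Got1 was lower in vivo in both, at -1.74 (SE 0.46, adjusted p = 0.0295) and -2.29 (SE 0.46, adjusted p = 0.00334).

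These counts changed with single arrays. In Tconv limma called 1 without the in vivo 2 h array numbered 1, 1 without the in vivo 0 h array numbered 2, 0 without the cultured 2 h array numbered 1, 3 without the other cultured 2 h array and 15 without the cultured 0 h array numbered 2. In Treg it called 1 without the in vivo 2 h array numbered 1, 2 without the in vivo 0 h array numbered 2, 3 without the cultured 0 h array numbered 1 and 1 without the cultured 2 h array numbered 2. With the in vivo arrays numbered 2 alone it called 0 in either cell type, and with the replicate block 8 in Tconv. Without the cultured Tconv 0 h array numbered 1 the Tconv differences were 1.71 (adjusted p = 0.0527) for Shmt1, 1.59 (adjusted p = 0.137) for Slc7a5, 1.85 (adjusted p = 8.10e-04) for Slc1a5, 2.59 (adjusted p = 0.00281) for Ddit4 and -1.18 (adjusted p = 0.251) for Got1. Got1 in Treg was kept without each array in turn.

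**Figure D4:**
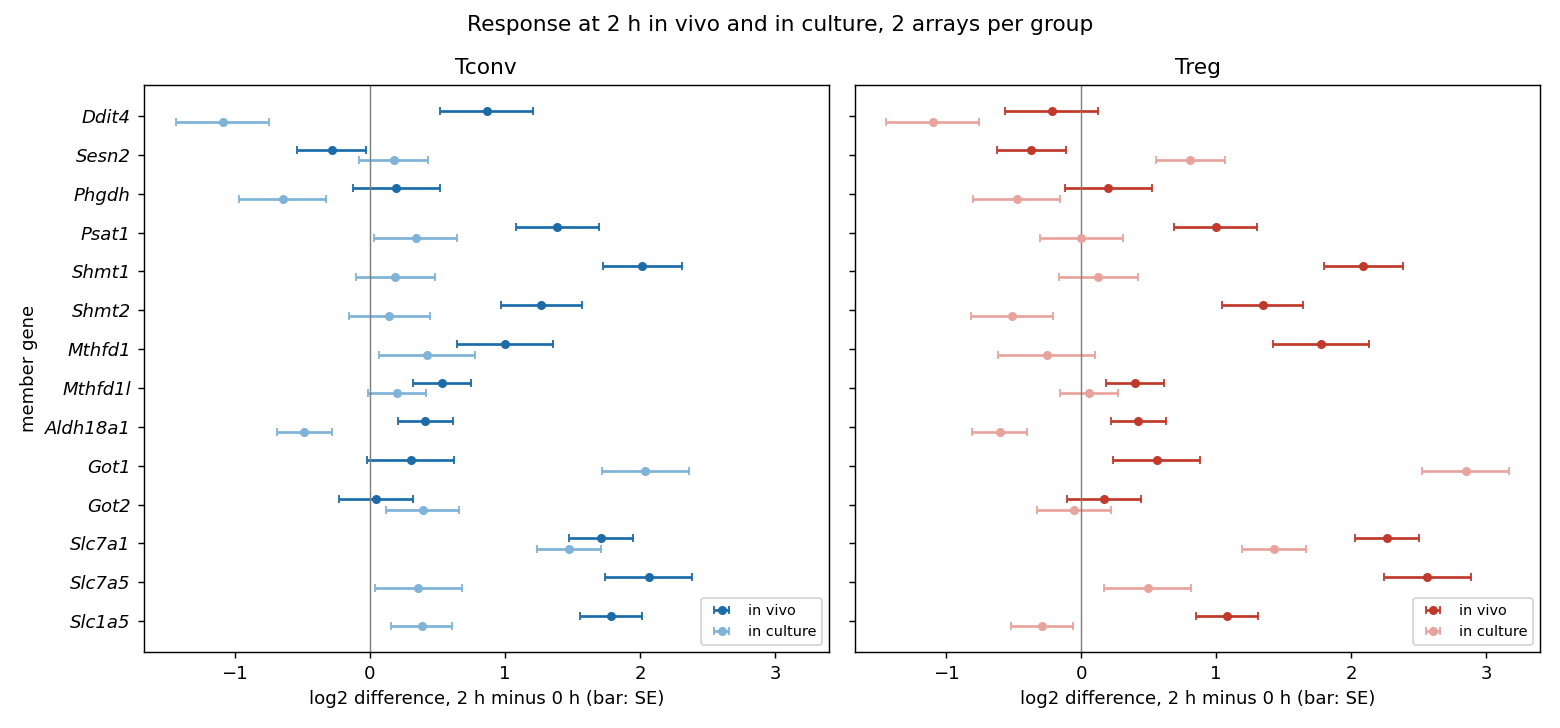
Log2 difference of 2 h from 0 h (horizontal axis, bar: SE from the fit) for the 14 members called by the F-test in either cell type (vertical axis), in vivo (dark) and in culture (light), for Tconv (left) and Treg (right), 2 arrays per group. Shmt1 stands at 2.02 in vivo and 0.19 in culture in Tconv, and Got1 the other way at 0.30 and 2.04.

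At 8 h limma called 0 members for the difference of the settings in either cell type, with 3 in Tconv and 9 in Treg at an unadjusted p under 0.05, against 0.491% and 0.362% of all tested genes called. At 24 h 2 members were lower in vivo in Tconv, against 1.05%, Mthfd1 with a difference of -2.16 (SE 0.50, adjusted p = 0.0301) and Slc7a1 with one of -1.43 (SE 0.34, adjusted p = 0.0326). With quantile normalization 1 was higher and 2 lower. Without the cultured 0 h array numbered 1 these were -1.45 (adjusted p = 0.314) and -0.89 (adjusted p = 0.293), and limma called 17 members without the cultured 0 h array numbered 2, 1 without the in vivo 24 h array numbered 2 and 0 without any 1 of the other arrays compared. On the arrays numbered 1 and 2 the Mthfd1 difference was -3.17 and -1.15. At 72 h limma called 0 members in Tconv, against 0.0885%, with more called without the cultured 0 h array numbered 2. In Treg at 24 h it called 0, against 0.0966%. At an unadjusted p under 0.05 there were 8 members in Tconv at 72 h and 2 in Treg at 24 h. At 72 h 2 members were lower in vivo in Treg, against 1.58%, Sesn2 with a difference of -1.45 (SE 0.36, adjusted p = 0.0366) and Mthfd1l with one of -1.24 (SE 0.30, adjusted p = 0.0328). Neither was called without either in vivo 0 h array, the in vivo 72 h array numbered 2 or the cultured 0 h or 72 h array numbered 1, and 1 was called without the cultured 0 h array numbered 2 and 5 without the cultured Tconv 0 h array numbered 1. With the replicate block limma called 2, 5 and 1 members in Tconv at 8, 24 and 72 h and 4 in Treg at 72 h.

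Before KT3 few members differed between Treg and Tconv by the test. In vivo limma called 0 members at 0 h, against 3.1% of all tested genes, 2.58% higher in Treg and 0.515% lower. At an unadjusted p under 0.05 there were 3 members. In culture 1 was called, against 11.2%, 8.68% higher and 2.56% lower. This was Aldh18a1, with a Treg minus Tconv difference of 0.69 (SE 0.20, adjusted p = 0.0363), and arrays of 9.07 and 9.22 against 8.14 and 8.77 in Tconv. That call was lost without the Tconv array numbered 1 or the Treg array numbered 2. Without the Tconv array numbered 2, limma called 20 members at rest in culture, and with quantile normalization 4, all lower in Treg. With the replicate block it called 1 at rest in vivo and 4 in culture.

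The responses of Treg and Tconv were then set against each other. In vivo limma called 0 members at each of the 4 times, with 2, 2, 2 and 0 at an unadjusted p under 0.05 at 2, 8, 24 and 72 h, against 0.0483%, 0.233%, 0.0644% and 0.0161% of all tested genes called. In culture 1 was called at 8 h, against 0.652%: the response of Slc1a5 was lower in Treg, with a difference of -1.45 (SE 0.32, adjusted p = 0.0312), from 0.17 in Treg and 1.62 in Tconv. That call was lost without any 1 of the arrays compared other than the Tconv 0 h array numbered 2 and the Treg 8 h array numbered 1. In all 11 members had an unadjusted p under 0.05 there, and 0 of them were higher in Treg. No share of all tested genes at that threshold is given beside them. The number of calls there changed with either Tconv 0 h array, as given below. The largest differences were those of Shmt2 (-1.68, SE 0.43, adjusted p = 0.072), Mthfd1 (-1.64, SE 0.50, adjusted p = 0.146) and Psat1 (-1.55, SE 0.43, adjusted p = 0.118), which did not pass.

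At 2, 24 and 72 h in culture limma called 0 members for the difference of the cell types, with 1, 4 and 4 at an unadjusted p under 0.05, against 0.145%, 0.491% and 1.79% of all tested genes called. Without the cultured Tconv 0 h array numbered 2 the counts were 8, 14, 9 and 7 at the 4 times. Without the array numbered 1 they were 0 at each. With the replicate block limma called 4 at 8 h and 2 at 72 h.

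After rat IgG, the injected control antibody, no member passed. Against 0 h limma called 0 members in Tconv and 0 in Treg, with 0 and 2 at an unadjusted p under 0.05, and 0% of all tested genes were called in either cell type. KT3 at 24 h set against IgG at 24 h also gave 0 called members in both, with 3 in Tconv and 9 in Treg at an unadjusted p under 0.05, against 1.47% and 0.274% of all tested genes. The largest differences were those of Ddit4, in Tconv (1.57, SE 0.42, adjusted p = 0.0632) and in Treg (1.39, SE 0.42, adjusted p = 0.192). IgG at 2 or 8 h was not analysed here, and each IgG group holds 1 array, taken to vary like the other groups. Limma called 2 members with the replicate block for KT3 against IgG in Tconv.

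Other genes of the pathway were counted from lists of names, in the same fits. Of 12 tested genes of endoplasmic reticulum stress, the chaperones and factors of protein folding, 7 rose in Tconv in vivo at 8 h and 6 in Treg, with none falling, where 14.4% and 6.36% of all tested genes rose. At 2 h 2 rose in Tconv and 1 in Treg, against 3.04% and 5.04%. The chaperone gene Hspa5 rose by 1.45 (SE 0.38) and Creld2 by 1.43 (SE 0.20) in Tconv at 8 h, and Creld2 by 1.76 (SE 0.20) and Hspa5 by 1.31 (SE 0.38) in Treg. Xbp1, a factor of secretory protein folding, rose at 2 h by 1.46 (SE 0.20) and 2.05 (SE 0.20). In cultured Tconv 6 rose at 2 h and 8 at 8 h, against 19.5% and 15.7%, but leaving out the 0 h array numbered 1 left 1 higher and 1 lower at 2 h, against 2.77% and 2.21%, and 3 higher and 1 lower at 8 h, against 4.7% and 5.57%. In cultured Treg 0 and 1 rose, against 4.02% and 4.52%. The list's median at 8 h in vivo was 1.06 in Tconv and 0.89 in Treg, beside -0.06 and -0.02 over all tested genes.

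Of 15 other one-carbon genes 7 rose in Tconv and 6 in Treg in vivo at 8 h, against the same 14.4% and 6.36%, and 3 and 5 at 2 h, against 3.04% and 5.04%. The glycine cleavage gene Gcsh rose by 2.31 (SE 0.26) and the reduced folate carrier gene Slc19a1 by 1.80 (SE 0.26) in Tconv at 8 h, and in Treg Gcsh by 1.89 (SE 0.26) and the folate polyglutamylating enzyme gene Fpgs by 1.45 (SE 0.24). In cultured Tconv 3 rose and 1 fell at 2 h, against 19.5% and 6.8%, and 8 rose at 8 h, against 15.7%. Leaving out the 0 h array numbered 1, limma called 0 higher and 1 lower at 2 h, against 2.77% and 2.21%, and 3 higher at 8 h, against 4.7%. In cultured Treg 0 were called at 2 h and 2 rose at 8 h, against 4.52%. Of 12 other amino acid enzymes 2 rose in each in vivo cell type at 2 and at 8 h, against the shares above: Odc1, which starts polyamine synthesis, by 2.70 (SE 0.28) and 2.18 (SE 0.28) at 8 h, and the branched-chain aminotransferase gene Bcat1 by 2.76 (SE 0.24) and 2.20 (SE 0.24).

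The sensors upstream of ATF4 mostly did not pass in vivo: of 9 tested 1 rose in Tconv at 8 h, the amino acid shortage kinase gene Eif2ak4 by 0.65 (SE 0.16), against 14.4% of all tested genes, and none in Treg at 2 or 8 h. In cultured Tconv 4 of 9 rose at 2 h, against 19.5%, led by the adaptor gene Nck1 at 1.33 (SE 0.48) and the phosphatase subunit gene Ppp1r15b at 1.07 (SE 0.26). Limma called 0 of 9 there when the 0 h array numbered 1 was left out, and these differences were 0.24 (adjusted p = 0.864) and 0.37 (adjusted p = 0.352). Of 13 other ATF4 and stress targets 1 rose in each cell type in vivo at 2 h, against 3.04% and 5.04%, Atf3, a bZIP stress factor gene, by 1.56 (SE 0.28) in Tconv and 1.83 (SE 0.28) in Treg. Of 12 other amino acid transporters none rose in vivo at 2 or 8 h, and 1 or 2 fell. Of all tested genes 0.467% fell at 2 h and 6.54% at 8 h in Tconv, and 1.42% and 3.31% in Treg. Among the transporters that fell was the neutral carrier gene Slc43a2, at -0.97 (SE 0.22) in Tconv and -0.87 (SE 0.22) in Treg at 8 h. Of 17 genes of amino acid sensing by mTORC1 2 were called in Tconv and 3 in Treg at 8 h, against 21% and 9.67% of all tested genes in vivo. Sesn1, a relative of Sesn2, fell, with differences of -2.31 (SE 0.47) and -2.04 (SE 0.47).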

How the data were processed

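Tconv and Treg RNA was read on 42 Affymetrix gene arrays. The deposited intensity values, on a linear scale, were made by the authors with RMA, per the submitters' processing notes and the series' design text. No version or build is given in the sources used here. Here log2 was taken of the deposited intensities. Of 24922 transcript clusters 21425 had 1 platform symbol, 1399 several and 2098 were not listed, and the cluster of highest mean stood for a gene. A gene was tested if it lay over the median of 2 or more arrays, which left 12425.

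One model of 22 group means was fitted in limma 3.58.1 (R 4.3.3), two-sided, with Benjamini-Hochberg adjustment at 0.05 over all tested genes. IgG groups hold 1 array each and borrow the spread of the others. The fit was tested on simulated data. Tables and figures used Python 3.11.15, pandas 2.3.3, numpy 2.4.6 and matplotlib 3.10.9.

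The members and lists were chosen with earlier results of these data known. Array values are given for fixed members (Atf4, Ddit3, Trib3, Asns, Psat1, Phgdh, Shmt2, Mthfd2, Slc7a5, Slc3a2, Slc1a5, Slc38a2) and the 2 largest rises and falls of a response, and up to 5 rises and 3 falls are named, with up to 4 called members per difference of cell types or settings and 2 of each other list; further names were chosen after their values were seen. The steps between times, the single-time differences of the settings, and the fits without the arrays of narrowest range or the in vivo arrays numbered 1 were added after seeing the data.

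Array numbers go with sex and age in culture, per the labels, and name no shared animal in vivo, so the fit without them as a block is the one reported, and the blocked count stands beside each count it moves by over 1.5 times. Same-numbered deviations from group means correlated from -0.17 to 0.78 in vivo (over 0.1 in 32 of 45 pairs of groups) and from -0.45 to 0.71 in culture (28 of 45). Alternatives were quantile normalization, median centring, no filter, the mean of a gene's clusters, one setting at a time, a replicate block and each array left out. Promoter windows came from RefSeq (GRCm38.p6). The number of arrays limits the precision.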

Additional observations from a re-analysis of the deposited data

Results flagged for a closer look

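The responses below differed between the in vivo and the cultured arrays of a cell type by limma's moderated F-test over 4 times, with the adjusted p given, and each value is the log2 difference of the 2 responses (in vivo minus culture) at the time where it was largest. In Tconv the cytosolic enzyme gene Shmt1 differed by 1.82 at 2 h (adjusted p = 4.02e-04), Slc7a5 by 1.70 at 2 h (5.67e-04), Slc1a5 by 1.40 at 2 h (0.00293), Ddit4 by 1.95 at 2 h (0.0421), Psat1 by 1.05 at 2 h (0.0354), Aldh18a1 by 0.90 at 2 h (0.00449) and Got1 by -1.74 at 2 h (0.0274). At 24 h Shmt2 differed by -1.58 (7.61e-04), Mthfd1 by -2.16 (0.00356), Mthfd1l by -0.69 (0.0436) and Slc7a1 by -1.43 (0.00208). Among these largest differences the higher values in vivo lie at 2 h and the lower ones, other than that of Got1, at 24 h. The adjusted p covers the 4 times together. By the test of a single time, Psat1 and Aldh18a1 at 2 h and Shmt2 and Mthfd1l at 24 h did not pass. The 24 h differences of Mthfd1 and Slc7a1 were smaller and not called without the cultured 0 h array numbered 1.

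In Treg Shmt1 differed by 1.96 (2.49e-05), Shmt2 by 1.86 (3.53e-04), Mthfd1 by 2.03 (0.00126), Slc7a5 by 2.07 (4.33e-04), Slc1a5 by 1.37 (0.00681), Aldh18a1 by 1.02 (0.00333) and Got1 by -2.29 (0.00746), each at 2 h. Phgdh differed by 1.25 at 8 h (0.0404). At 72 h Sesn2 differed by -1.45 (0.0428), Psat1 by -1.43 (0.00109), Mthfd1l by -1.24 (5.84e-04), Got2 by -1.10 (0.0442) and Slc7a1 by -1.17 (5.34e-04). By the test of a single time, Phgdh at 8 h and Psat1, Got2 and Slc7a1 at 72 h did not pass. Age, in part sex, and how the cells were sorted cannot be told apart from the setting.

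The response of Slc1a5 in culture at 8 h differed between Treg and Tconv by -1.45, by the test of that difference in limma (adjusted p = 0.0312). Of 34 members 1 was called there.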

How the results depend on the processing

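Counts below are of members at an adjusted p under 0.05 in limma. Of 129 called responses to KT3 30 were kept under every alternative run and 99 were lost under at least 1, and over all comparisons 0 of 220 called results changed sign. With 2 arrays per group, the number of arrays limits the precision.

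Leaving out each array in turn, counts for the response to KT3 ranged from 4 to 12, 13 to 21 and 0 to 2 in Tconv in vivo at 2, 8 and 24 h, and from 3 to 10 and 6 to 18 in Treg in vivo at 2 and 8 h. In culture they ranged from 4 to 19, 10 to 20, 2 to 21 and 0 to 19 in Tconv at 2, 8, 24 and 72 h and from 2 to 10, 1 to 10, 2 to 12 and 4 to 12 in Treg. At rest the range was 0 to 1 in vivo and 0 to 20 in culture. For Treg against Tconv responses in culture it was 0 to 8, 0 to 14, 0 to 9 and 0 to 7, and for KT3 against IgG 0 to 1 in both cell types. For the steps it was 1 to 10 and 10 to 19 in Tconv in vivo, 0 to 2 and 1 to 10 in Treg in vivo, 8 to 15 and 0 to 5 in cultured Tconv and 2 to 6 for the earlier step in cultured Treg. For the F-test it was 6 to 23 in Tconv and 9 to 18 in Treg. For the difference of the settings it was 0 to 15, 0 to 5, 0 to 17 and 0 to 14 in Tconv at 2, 8, 24 and 72 h, and 1 to 10, 0 to 1 and 0 to 5 in Treg at 2, 24 and 72 h.

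The check of the array numbers was mixed and does not settle whether they pair the groups. Fits with the array number as a replicate block gave 2 calls in Tconv in vivo and 1 in Treg in vivo at 24 h, 5 and 8 in cultured Treg at 2 and 8 h, 1 and 4 at rest in vivo and in culture. They gave 4 and 2 for Treg against Tconv in culture at 8 and 72 h, 2 for KT3 against IgG in Tconv, 10 for the earlier Tconv and the later Treg step in vivo, 5 for the later step in cultured Tconv. There were 8, 2, 5 and 1 for the difference of the settings in Tconv at 2, 8, 24 and 72 h and 4 in Treg at 72 h. All other counts stayed within 1.5 times under the block.

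Quantile normalization gave 2 calls in Tconv in vivo at 24 h, 5 and 5 in cultured Treg at 2 and 24 h, 1 and 4 at rest in vivo and in culture, 5 for Treg against Tconv in culture at 8 h, 1 for KT3 against IgG in Tconv, 3 for the earlier step in cultured Treg, and 1 for the difference of the settings in Tconv at 8 h and in Treg at 72 h. Median centring gave 2 in Tconv in vivo at 24 h, 2 at rest in culture, 0 for Treg against Tconv in culture at 8 h, 0 and 3 for the steps in Treg in vivo, 3 for the earlier step in cultured Treg, and 0 and 1 for the difference of the settings in Tconv at 24 h and Treg at 72 h. It moved the median of all genes in cultured Tconv from 0.063 to 0.249 at 2 h and from 0.228 to 0.425 at 24 h. Quantile normalization lowered the share of higher calls among all genes by over 10 points in vivo at 2 and 8 h and in culture at all 4 times, in cultured Tconv from 83% to 59.3% at 8 h, 72.1% to 52.3% at 24 h and 88.1% to 57.3% at 72 h, and in cultured Treg from 84.3% to 49.5% at 24 h and 80.6% to 56.1% at 72 h. Without the filter on dim genes the steps in Treg in vivo gave 0 and 2 and the earlier step in cultured Treg 3.

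Fits on arrays of the same setting gave 4, 10 and 1 in cultured Tconv at 2, 24 and 72 h, 3 and 5 in cultured Treg at 8 and 24 h, 1 and 0 at rest in vivo and in culture, 0 for Treg against Tconv in culture at 8 h, 2 and 11 for the steps in Treg in vivo, 1 for the later step in cultured Tconv and 3 for the earlier in cultured Treg. Without the 3 cultured arrays of narrowest range there were 2 in Tconv in vivo at 24 h, 4, 8, 3 and 0 in cultured Tconv at 2, 8, 24 and 72 h, 7 in cultured Treg at 24 h. There were 1 and 0 at rest in vivo and in culture, 1 for Treg against Tconv in vivo at 8 h and 0 in culture at 8 h, 1 for KT3 against IgG in each cell type, 10 for the earlier step in Tconv in vivo, 3 and 11 for the steps in Treg in vivo, and 0 for the difference of the settings in Tconv at 24 h and in Treg at 72 h. Without the in vivo arrays numbered 1 there were 0, 9 and 0 in Tconv in vivo at 2, 8 and 24 h, 2 and 1 in Treg in vivo at 2 and 8 h, 1 and 6 for the steps in Tconv in vivo. There were 0 and 0 for the steps in Treg, 0 and 5 for the F-tests, 0 and 0 for the difference of the settings in Tconv at 2 and 24 h and 0 and 0 in Treg at 2 and 72 h. Both of these leave fewer arrays per group. For the other settings the cause was not tested.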

Other observations

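Later in culture the other lists moved in part. Of 12 other amino acid enzymes 2 rose in cultured Treg at 24 h and at 72 h, where 5.01% and 7.34% of all tested genes rose. They were Odc1, which starts polyamine synthesis, by 2.30 (SE 0.28) and 2.56 (SE 0.28), and Bcat1, a branched-chain aminotransferase gene, by 1.65 (SE 0.24) and 1.55 (SE 0.24). Of 15 other one-carbon genes 2 rose in cultured Treg at 72 h, against 7.34% of all tested genes. They were the thymidylate synthase gene Tyms, by 1.98 (SE 0.32), and the serine carrier gene Sfxn1 of mitochondria, by 1.84 (SE 0.33). Tyms also rose in Tconv in vivo at 24 h, by 2.11 (SE 0.32), as the only one of that list called there. Of all tested genes 2.27% rose there. Of 9 sensors upstream of ATF4 Eif2ak2, the kinase PKR that senses double-stranded RNA, rose in cultured Treg by 2.86 (SE 0.36) at 8 h and 1.86 (SE 0.36) at 24 h. At these times 4.52% and 5.01% of all tested genes rose in cultured Treg. Ppp1r15a, the eIF2 phosphatase subunit gene induced by stress, fell there at 72 h, with a difference of -1.54 (SE 0.35), where 1.77% of all tested genes fell.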
